A study of Arabidopsis thaliana with 30 samples.

Results

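A set of 164 probe sets, out of 22746 on the Arabidopsis ATH1 array, was low in a section of the root cut some distance above the tip and high in every other root piece of the series. The members were selected on their signals in these same arrays. The section had to lie at least 1.2 below each of the 7 other groups on the log2(signal + 32) scale, the tip at 4 days post germination (dpg) and the fresh stump had to lie within 0.7 of each other, and the mean signal of the fresh stump had to be at least 200. Of all probe sets, 317 met the condition on the section, 255 of these also met that on the signal, and 164 met all. Of the members, 119 are paired with 1 gene each, all different, 3 with several genes, and 42 were not listed with a gene.

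All tissue came from Col-0 seedlings on agar. In the regeneration series a tip of 130 µm was cut away at 4 dpg, and the 70 µm of root next to the cut, the stump, was collected at 0, 5, 13 or 22 h. The section, the tip taken at 4 or at 8 dpg and a further stump at 8 dpg made up the rest. The titles place the section from 270 to 340 and do not name the point measured from. The protocol gives lengths in µm, where the titles print mm. The section was harvested at once and the labels give it no age. The stump at 8 dpg is labelled as recut after 0 h in its title and as taken 192 h after the first cut in its source name. The stump had 4 arrays each at 0, 5 and 13 h and 5 at 22 h. The tip had 4 arrays at 4 dpg and 3 at 8 dpg, the later stump had 3, and so did the section. Each array holds a pool of at least 25 pieces of tissue, and nothing in the labels says that replicates came from separate sowings. The p-values below therefore measure the spread between these arrays only.

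The root grows from a meristem at its tip, where small cells divide, and cells that leave it elongate and differentiate. Dividing cells must double their ribosomes, so ribosomal proteins and the many nucleolar factors that transcribe, cut, modify and assemble ribosomal RNA are made at a high rate in meristems. Excision of the tip removes the stem cell niche, and the Arabidopsis root can rebuild it from the remaining meristem.

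On the section arrays the median member signal was 204.4, 159.3 and 135.9. On the 27 other arrays it lay between 414.0 and 949.8, and the 3 section arrays were all below these. The 4 stump arrays at 0 h gave 800.8, 478.9, 557.8 and 604.8, a range that overlaps those of the other stump times. The tip and the stump at 8 dpg were the most even groups, with 896.1 to 943.2 and 889.7 to 949.8. In rank, the median member stood at percentile 63.7 to 70.6 of all probe sets of a section array, at 83.4 to 92.3 on the stump arrays from 0 to 22 h, and at 90.3 to 92.0 on the tip arrays and the stump arrays at 8 dpg.

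**Figure D1:**
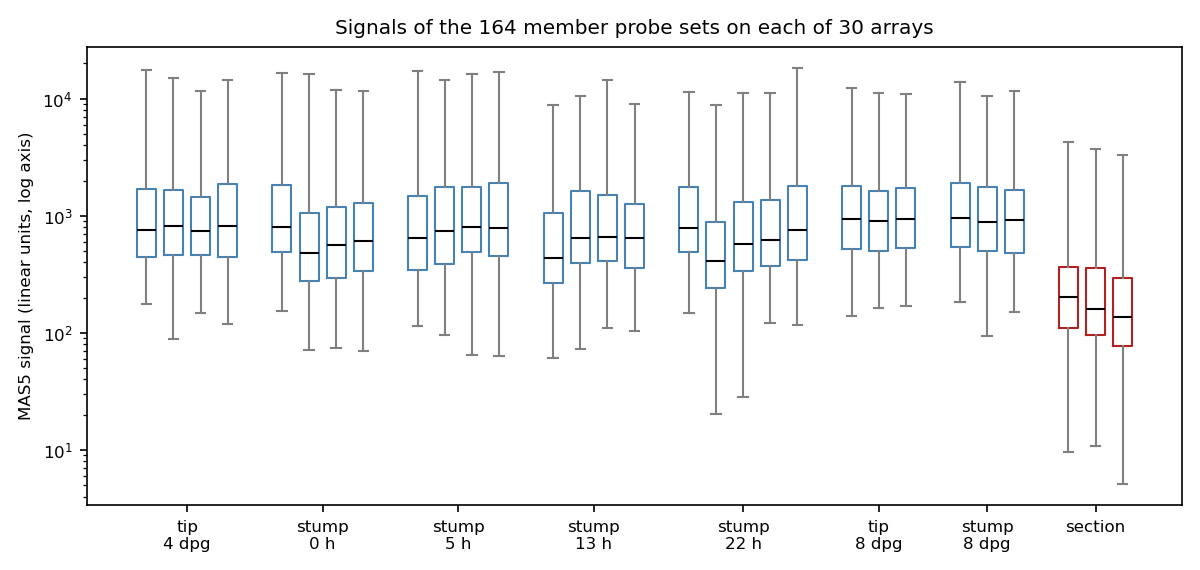
Each box shows the MAS5 signals of the 164 members on 1 array (log axis; line, median; box, quartiles; whiskers, lowest and highest member), grouped by tissue. The section boxes (red) lie lowest, with medians of 135.9 to 204.4, as the choice of members fixes; among the others the medians run from 414.0 to 949.8.

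The depth of the dip is what chose the members and is given as a description. From the stump at 0 h to the section the log2 difference had a median of -1.65 and ran from -1.21 to -2.87. The mean signal at 0 h had a median of 605.1 and ran from 210.4 to 14153, against a median of 108.2 over all probe sets, and the mean signal in the section ran from 21.47 to 3626. Most members were thus reduced in the section, not silent there: 15 of 164 lay under the array median on every section array. In 147 members all 3 section arrays were below all 27 others, which the choice of members largely fixes. The same count over all probe sets is not given here, so the 147 are only described. The lowest of the other groups was the stump at 13 h for 60 members, the stump at 0 h for 53, the stump at 22 h for 26, the stump at 5 h for 12, the tip at 8 dpg for 7, the stump at 8 dpg for 3 and the early tip for 3. The highest group was the stump at 8 dpg for 56, the tip at 8 dpg for 43, the tip at 4 dpg for 29 and the stump at 5 h for 28. The rule kept the early tip close to the fresh stump. The tip was the higher of them for 147 members, and the median difference was 0.39.

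The limits of the rule cut through a continuous range. The choice also depends on the scaling: the section arrays had the lowest array medians, and with median centring of the arrays the rule kept 56 members. Just inside the limit on the section lay AT4G40000, PPR596 and AT4G22380 with gaps of 1.206, 1.208 and 1.208, and just outside lay AT5G08420, AT1G10780 and AT2G40700 with 1.198, 1.198 and 1.196. Just inside and outside the limit on the tip lay AT3G20240, at a difference of 0.70, and AT5G15750, at 0.709. At the limit on the signal, AT5G41650 with 213.0 was inside and AT1G02370 with 197.8 outside.

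Markers of dividing cells were looked at to see whether the set holds the usual genes of a meristem. Of 24 genes of dividing cells 5 had a named probe set: PRL (a replicative helicase subunit), AUR1, AUR2 and AUR3 (Aurora kinases of mitosis) and HTR12 (the centromeric histone H3). All 5 were lowest in the section, with gaps to the next group of 0.168 to 0.83, and 0 of the 5 were members. Of 8 regulators of the root meristem BBM and JKD were named, and neither was a member. BBM was lowest in the section, at a mean of 8.367. JKD was not, with a mean of 98.4 there and 32.6 in the stump at 5 h. In the section the mean signal of SIM, an inhibitor of cyclin-dependent kinases in cells that stop dividing, was 1131 ± 181.7 (SD, n = 3), against 982.6 ± 758.3 at 0 h (n = 4) and 83.85 ± 92.54 in the tip at 4 dpg (n = 4). Over the 3 measured genes of elongating and hair cells, SIM, EXPA7 and EXPA18, the summed signal was 1059.6 to 1389.9 on the section arrays, 410.4 to 1955.0 in the stump at 0 h and 51.9 to 141.7 in the stump at 8 dpg. The hair cell genes EXPA7 and EXPA18 were dim in the section, at 43.37 ± 31.17 and 30.3 ± 12.7. The endodermis, xylem, phloem and root cap markers had 0 named probe sets. In pooled tissue, fewer cells of a kind and less RNA per cell cannot be told apart. The part that the share of dividing cells plays in the members' levels was not tested. The Aurora kinases AUR1, AUR2 and AUR3 lay 1.43, 1.74 and 1.51 lower in the section than at 0 h on the log2 scale, a difference like that of the members, and missed the set by their gap to the next group. With 5 of 24 genes named, how the set stands to the cell cycle genes as a whole was not tested.

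The members with 1 gene were sorted by what their products do, from knowledge of the genes, after it was known which genes were members. There were 25 genes of ribosome biogenesis, 13 of cytosolic ribosomal proteins, 11 of RNA modification and splicing, 10 of mitochondria, 5 of chromatin and cell division, 11 of the cell wall, cytoskeleton and stress, and 44 of other or no described role. A list of cytosolic ribosomal proteins, drawn up by family but after the members were known, had 130 named probe sets, of which 13 were members. Of all 13513 probe sets with 1 gene 119 were members (0.881%). These shares are shaped by the rule's condition on the signal of the fresh stump, which 117 of the 130 and 3971 of the 13513 met. Of the 117 probe sets on the list that were not members 101 were lowest in the section, with a median difference from the stump at 0 h of -0.745. Over all 13513, members included, 4279 were lowest there and the median was -0.26. Neither comparison was matched for signal. The biogenesis list holds the 25 members by construction. Of its 20 other probe sets 20 were lowest in the section and 9 met the gap of 1.2. Near-identical gene copies are common among ribosomal proteins, and a probe set may also bind a copy it is not named for.

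The biogenesis members named here belong to several steps in the making of the ribosome. AT3G25940, AT3G13940 and AT1G75670 encode RNA polymerase I subunits, which transcribe ribosomal RNA. AT3G25940 had the widest gap of all 164 members, 2.41: its section signals were 116, 71.2 and 69.2, and its stump signals at 0 h were 824, 495, 621 and 458. The section arrays lay under the lowest 0 h array, which the choice of members largely fixes, here and for the genes below. AT3G05060, a homologue of the yeast box C/D snoRNP protein NOP58, gave 1213, 2398, 1777 and 2894 in the stump at 0 h and 604, 590.3 and 410.2 in the section. AT2G40360, the homologue of mouse BOP1 in assembly of the large subunit, was the brightest of these genes, at 9968, 3846, 6399.8 and 7235 at 0 h and 1768, 2248 and 1219 in the section. For both genes the section arrays lay below the 0 h arrays, which is again only described.

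Others of the small subunit path were the homologues of yeast BMS1 (AT1G06720, mean 614 at 0 h and 147 in the section), MPP10 (AT5G66540, 396 and 106) and NOP14 (AT1G69070, 437 and 125). AT3G21540, a WD40 protein of the UTP12 type, went from 384 to 76.2. Of the large subunit path, the NOC3 homologue AT1G79150 had means of 353 and 77.1, the NSA2 homologue AT5G06360 of 3462 and 939 and the RLP24 homologue AT2G44860 of 1875 and 675. AT3G46210 and AT5G38890, exosome subunits that trim ribosomal RNA, had 523 and 99.8, and 444 and 165. RBL, known as REBELOTE and a member of the NOC2 family, had 384 and 118. Across the 25 genes the median signal was 601.2 at 0 h and 147.3 in the section.

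Among the ribosomal proteins, AT4G29410 (L28 of the large subunit) was the brightest, with 16109, 9333, 5719 and 8702 in the stump at 0 h and 2512, 3708 and 2766 in the section. The section arrays lay below all 0 h arrays, as the choice of members largely fixes, and the 0 h arrays were themselves widely spread. AT2G32220 (L27) had the widest gap of this group: its section signals were 137, 77.4 and 63.4 and its 0 h signals 764, 618, 483 and 458. AT1G15250 (L37) had means of 1616 and 287. The group holds proteins of both subunits, and its median signal was 1616 at 0 h and 487.0 in the section. Beyond the cytosol, the mitochondrial members included HLL, a mitochondrial ribosomal protein known from ovule development (1142 ± 450.5 at 0 h and 317 ± 126 in the section, SD, n = 4 and 3), and PPR596, a pentatricopeptide repeat protein (1532 ± 895 and 599.5 ± 268).

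The rule set no condition on the differences between the stump times, between the tips, or between the stump at 8 dpg and other groups, but it set a floor above the section for every group. A probe set was called where limma gave an adjusted p under 0.05 over 22746 probe sets and the groups were 1 or more apart on the log2 scale. That floor bounds these differences, since a member could not come near the section in any group. Of the 164 members 12 could have fallen by 1 from their level at 0 h and still been chosen, 39 from 5 h, 48 from the tip at 4 dpg and 85 from the stump at 8 dpg. A count of 0 lower calls is therefore no result about the members, and the medians and counts of positive differences given below are shaped by the same floor. They describe the members and are no test against the other probe sets. Nor were the shares of all probe sets given beside the calls matched for signal. Of the 8 comparisons, 4 use the same stump arrays at 0 h and share their error.

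**Figure D2:**
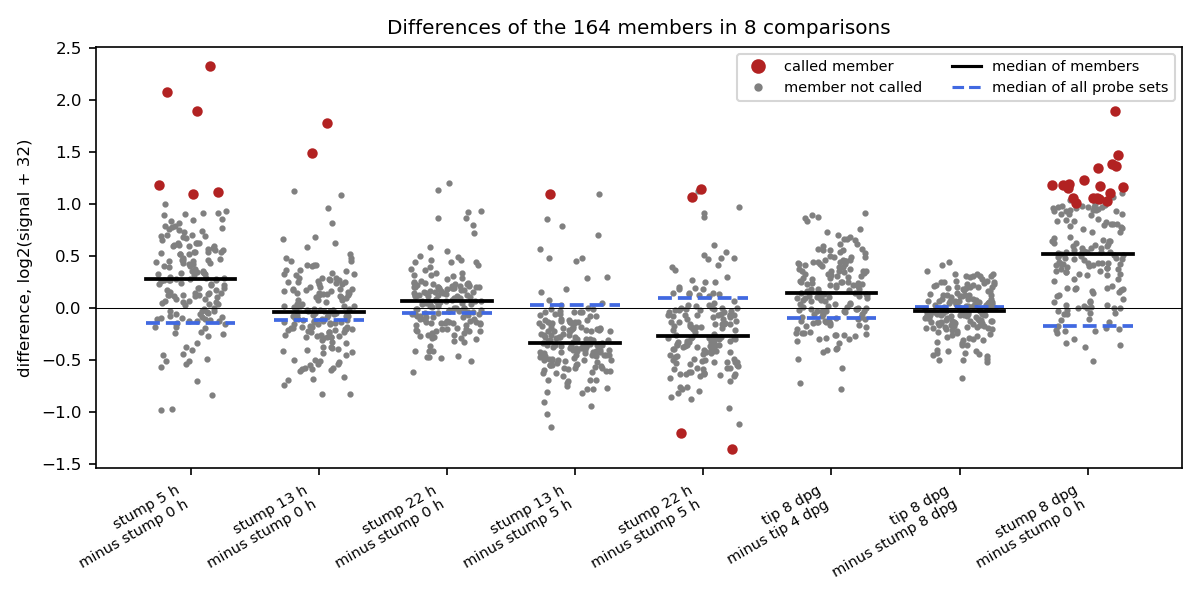
Differences of the 164 members on the log2(signal + 32) scale (y axis) in 8 comparisons (x axis; first group minus second); red points are called members, grey points others, black lines the members' median and dashed blue lines the median of all probe sets. The members' median was 0.274 from 0 to 5 h, -0.344 from 5 to 13 h and 0.518 from the stump at 0 h to the stump at 8 dpg.

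At 5 h after the cut 6 members had risen against 0 h and 0 had fallen. That is 3.66% of the members, where 1.48% of all probe sets were called higher and 1.16% lower. Without the dimmest 40% of probe sets, 361 of the 13648 left were called higher. The median difference of the members was 0.274, against -0.147 over all probe sets, and 121 of 164 were positive. The 3 elongating and hair cell genes went the other way, with 0 of 3 positive, a median of -1.18 and 0 calls; their summed signal was 194.5 to 666.9 at 5 h, against 410.4 to 1955.0 at 0 h. Their part in the members' difference was not tested. The 3 largest rises were in genes outside the ribosome groups. AT5G19110, of the aspartyl protease family, gave 339, 159, 180.2 and 240.2 at 0 h and 1083, 1246, 877 and 957 at 5 h. Every 5 h array was above every 0 h array, and the gene rose by 2.07 ± 0.337 (log2, SE; limma, adjusted p = 0.000199). AT1G29980, which encodes a DUF642 protein of the cell wall, gave 372, 495, 319.6 and 829.6 and then 2267, 1830.4, 2019.8 and 1374. It rose by 1.90 ± 0.243 (limma, adjusted p = 4.32e-06), again without overlap.

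AT1G54050, a small heat shock protein of the HSP20 family, rose most, by 2.32 ± 0.435 (limma, adjusted p = 0.00133). Its signals were 220.0, 201, 274 and 290.5 at 0 h and 1029, 2216, 1611 and 891 at 5 h, so the 0 h arrays lay close together and the 5 h arrays were spread above them. These 3 calls held under all 18 alternatives run. AT2G32220, the L27 gene, rose by 1.11 ± 0.263 (limma, adjusted p = 0.0137), from 764, 618, 483 and 458 to 1154, 1235, 965 and 1857, without overlap. Without the brightest of its 5 h arrays, replicate 4, and under 2 other alternatives its call was lost, with adjusted p from 0.00239 to 0.096 over the 18. AT2G31725, of no role known here, rose by 1.18 ± 0.284 and lost its call under 5 of 18.

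By role, all 13 ribosomal protein members had positive differences from 0 to 5 h, with a median of 0.538, a range of 0.115 to 1.11 and 1 call. Of the 25 biogenesis members 22 were positive, with a median of 0.337 and 0 calls. For the 117 other ribosomal protein probe sets of the list, 90 were positive, the median was 0.218 and 0 were called. Median centring of the arrays raised the median of all probe sets in this comparison from -0.147 to 0.084, and the medians of these members with it, to 0.77 and 0.568. With quantile normalization they were 0.421 and 0.319. The mitochondrial members' median was 0.166, and -0.006 with quantile normalization.

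**Figure D3:**
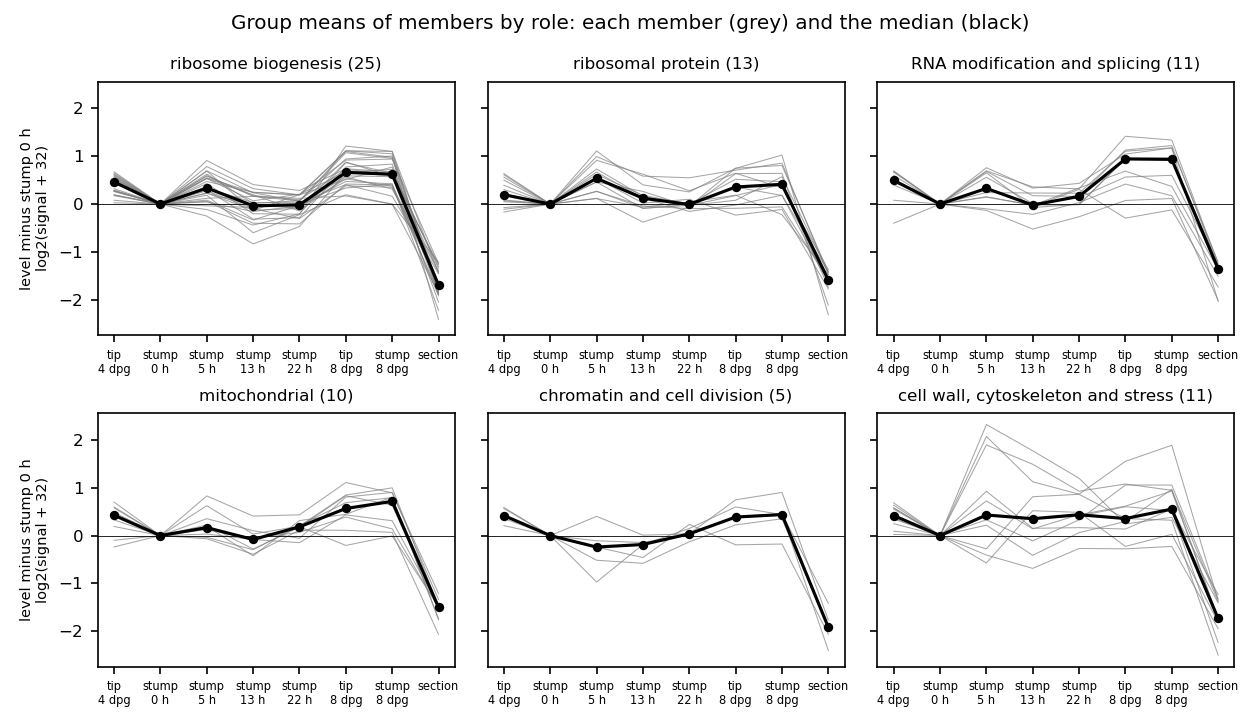
Group mean of each member on the log2(signal + 32) scale, relative to its mean at the stump 0 h (y axis), for 8 tissue groups (x axis) and 6 roles; grey lines are single members, black lines and points the median, and lines join groups only to guide the eye. The median of the 13 ribosomal protein members is 0.538 at 5 h, and the chromatin and cell division panel is the one whose median is below 0 at 5 h, at -0.24.

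The 5 chromatin and cell division members had 0 calls in any of the comparisons. 3xHMG-box2 encodes a protein with HMG boxes that binds mitotic chromosomes. Its signals were 2337, 442, 676 and 816 at 0 h, 374, 299, 546 and 556 at 5 h, 531, 780.4, 844 and 968 at 13 h and 2074, 821, 696, 798 and 909.7 at 22 h. Every 22 h array was above every 5 h array, while 0 h and 5 h overlapped. The differences were -0.97 ± 0.342 from 0 to 5 h (limma, adjusted p = 0.111) and 1.12 ± 0.324 from 5 to 22 h (limma, adjusted p = 0.0715), so neither passed. Its paralog 3xHMG-box1 had 436, 390.4, 345 and 289 at 0 h and 266, 110.0, 350.2 and 322 at 5 h, a difference of -0.52 ± 0.264 (limma, adjusted p = 0.281). Over the 5 members the median was -0.24 from 0 to 5 h, with 1 positive, and 0.386 from 5 to 22 h, with 4 positive. With median centring the first of these was -0.009. The 5 measured genes of dividing cells, none of them members, had no common course: 2 of 5 were positive from 0 to 5 h and 3 of 5 from 5 to 22 h, where 2 were called higher. The mean of AUR1 was 707.4 at 0 h, 415.2 at 5 h and 1035.7 at 22 h, that of AUR2 289.6, 133.8 and 460.9, and that of AUR3 406.6, 283.8 and 291.1. PRL had 596.7, 740.9 and 757.7, and HTR12 had 160.5, 174.6 and 123.0.

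By 13 h 2 members had risen against 0 h (1.22%, where 1.38% of all probe sets were called higher and 0.598% lower). Both were among those risen at 5 h. AT1G29980 gave 1259.8, 1367, 1398 and 1526 at 13 h and was still above 0 h by 1.49 ± 0.243 (limma, adjusted p = 0.000259). AT1G54050 gave 948, 2008, 528 and 674, a rise of 1.77 ± 0.435 (limma, adjusted p = 0.0207), and lost its call under 6 of 18 alternatives, over which the adjusted p ran from 0.014 to 0.114. The median over all members was -0.046, with 71 of 164 positive, and 0.138 with median centring, so its sign depended on the scaling. At 22 h 0 members were called against 0 h in either direction by limma, where 1.27% of all probe sets were called higher and 0.198% lower; 13 members had an unadjusted p under 0.05, 11 of them higher. The members' median was 0.059.

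From 5 to 13 h 148 of 164 members had negative differences, with a median of -0.344, against 0.026 over all probe sets. The medians with quantile normalization and median centring were -0.292 and -0.391. Of the ribosomal protein members 0 of 13 and of the biogenesis members 1 of 25 were positive, with medians of -0.438 and -0.414. None of these negative differences passed singly by limma: 0 members were called lower, and 0.145% of all probe sets were. An unadjusted p under 0.05 in either direction was found for 29 of 164 members, 23 of them lower, and for 7.03% of all probe sets. Among the 117 other ribosomal protein probe sets 13 were positive, with a median of -0.326. The 3 elongating and hair cell genes were all positive from 5 to 13 h, with a median of 1.65 and 0 calls, and their summed signal was 253.2 to 1937.8 at 13 h. Stump 13 h replicate 1, where that sum was highest, had the lowest member median of its group. Their part in the members' difference was not tested.

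One member rose from 5 to 13 h (0.61%, where 0.229% of all probe sets were called higher). AT3G53190, a pectate lyase-like gene whose family cuts wall pectin, gave 1769, 1216, 1220.4 and 1018 at 5 h, 2915, 3063, 2635 and 2449.9 at 13 h and 2944, 2161, 3676, 2581 and 3145 at 22 h. All 13 h and 22 h arrays were above all 5 h arrays. The rise was 1.09 ± 0.211 to 13 h (limma, adjusted p = 0.00782) and 1.14 ± 0.2 to 22 h (limma, adjusted p = 0.00108). Without replicate 4 of the 5 h stump the first was 0.981 (adjusted p = 0.0603, of a range of 0.00172 to 0.0603 over 18 alternatives), which left no member called. The second was 0.943 with median centring, under the size limit.

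From 5 to 22 h 2 members rose (1.22%; 1.17% of all probe sets) and 2 fell (1.22%; 0.352%). TBL36, of the TRICHOME BIREFRINGENCE-LIKE family known for acetylation of wall polysaccharides, rose by 1.06 ± 0.273 (limma, adjusted p = 0.0342). It gave 698, 485, 577 and 501 at 5 h and 2188, 989.8, 1137, 893 and 1128 at 22 h, without overlap, but its call was lost under 11 of 19 alternatives, with adjusted p from 0.00881 to 0.11. AT5G19110 fell by 1.21 on the log2 scale (SE 0.32; limma, adjusted p = 0.0414) from its level at 5 h to 541, 132, 407, 812 and 565, all below the 5 h arrays. That call too was lost under 11 of 19, with adjusted p from 0.0142 to 0.152. The other fall, by 1.36 on the log2 scale, was in a probe set not listed with a gene and held under all 19. The elongating and hair cell genes were again all positive, with a median of 1.87 and 0 calls. The members' median was -0.277, and every one of the 13 ribosomal protein members was lower at 22 h than at 5 h, with a median of -0.47 and 0 calls; the medians were -0.259 with quantile normalization and -0.666 with median centring.

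**Figure D4:**
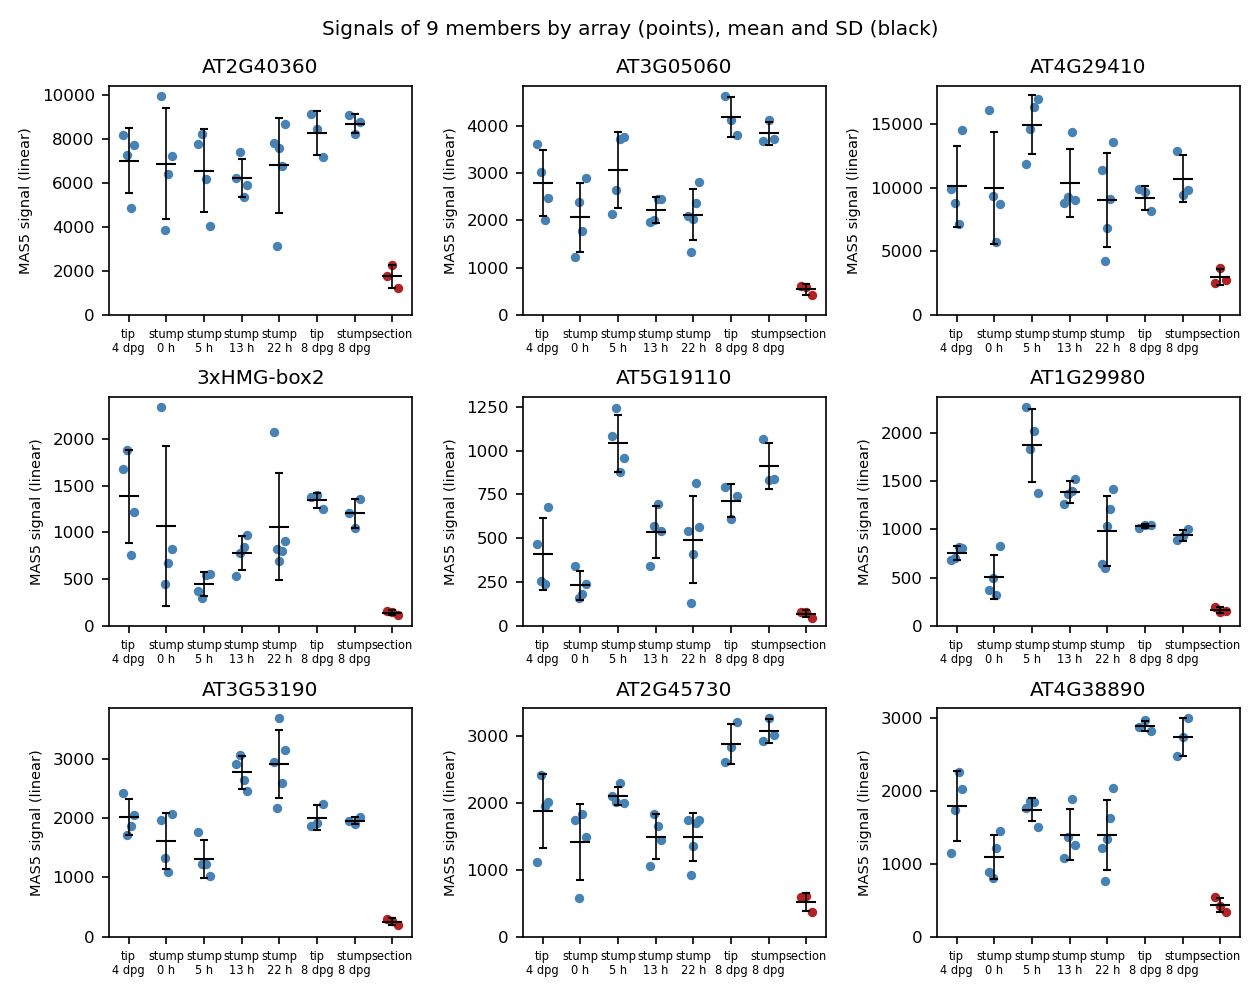
MAS5 signals (y axis, linear, from 0) of 9 members by tissue group (x axis); points are arrays, black bars the mean and SD of the group, and the section is red. AT5G19110 and AT1G29980 are highest at 5 h, AT3G53190 at 13 and 22 h, and AT2G45730 and AT4G38890 at 8 dpg, where their arrays lie above all 0 h arrays.

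The largest number of calls came with the stump at 8 dpg, set against the stump at 0 h: 19 members were higher (11.6%, where 3.64% of all probe sets were called higher and 3.16% lower). These shares were not matched for signal. Without the dimmest 40% of probe sets, 850 of the 13648 left were called higher. The members' median was 0.518, against -0.174 over all probe sets, and 139 of 164 were positive. Of the 3 elongating and hair cell genes 0 were positive and 1 was called lower; the mean of SIM was 982.6 at 0 h and 17.07 at 8 dpg, and their summed signal of 51.9 to 141.7 at 8 dpg lay below all 0 h arrays. All 5 genes of dividing cells were positive, with 1 called higher. The 2 measured regulators of the meristem went opposite ways, with 1 called higher and 0 lower. BBM had means of 19.3 at 0 h and 279.0 at 8 dpg, and JKD of 131.7 and 47.2. The part of a different mix of cells in the members' difference was not tested. With median centring, which moved the median of all probe sets to 0.087, the members' median was 0.78 and 49 were called. With quantile normalization they were 0.451 and 11. The count turned on single arrays: without replicate 1 of the stump at 0 h, whose array median of 141.8 was the highest of all 30, 32 members were called, and without replicate 2 of it 12. Without replicate 1 or 2 of the stump at 8 dpg 8 or 12 were called.

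Of the 11 members of RNA modification and splicing 4 were called, and their median was 0.934. AT4G38890 encodes a tRNA dihydrouridine synthase. It gave 885, 805, 1219 and 1451 in the stump at 0 h and 2482, 2737 and 3002 at 8 dpg, without overlap, and was higher by 1.34 ± 0.264 (limma, adjusted p = 0.000772). AT2G45730, the homologue of the yeast tRNA methyltransferase subunit TRM6, gave 1738, 584, 1824 and 1495 and 2922, 3268 and 3016. It was higher by 1.22 ± 0.296 (limma, adjusted p = 0.0066), again without overlap, and lost its call under 3 of 17 alternatives, among them without replicate 2 of the stump at 0 h, with adjusted p from 0.00108 to 0.117. The L7Ae family genes AT4G22380 and AT5G20160, homologues of a protein shared by snoRNPs and the spliceosome, were higher by 1.18 ± 0.28 and 1.17 ± 0.347 (limma, adjusted p = 0.00571 and 0.0298). AT4G22380 did not overlap between groups and kept its call under all 17, while AT5G20160 overlapped, with 4303, 1140.3, 2093 and 1328 at 0 h against 4511, 4113 and 4542, and lost its call under 7.

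Of the 25 biogenesis members 3 were higher at 8 dpg, with a median of 0.624 over the 25 and 23 positive. AT5G38720, the homologue of yeast RRP7, gave 915, 322, 769 and 952 at 0 h and 1306, 1656 and 1577 at 8 dpg. It was higher by 1.10 ± 0.278 (limma, adjusted p = 0.00919), and 4 of 17 alternatives lost the call. The RNA polymerase I genes AT3G13940 and AT3G25940 were higher by 1.05 ± 0.326 and 1.00 ± 0.267 (limma, adjusted p = 0.0394 and 0.014), at the size limit, and were lost under 12 and 8 of 17. The third polymerase I gene, AT1G75670, differed by 0.94 ± 0.23 (limma, adjusted p = 0.00721), under the size limit. Of the 20 other biogenesis probe sets 5 were called higher, with a median of 0.778. The ribosomal protein members had 1 call, AT2G32220 at 1.02 ± 0.284 (limma, adjusted p = 0.0194; lost under 7 of 17), and a median of 0.413, and the 117 others of that list 0 higher and 2 lower.

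Outside these groups AT5G19110 had the largest difference, 1.89 ± 0.364 (limma, adjusted p = 0.000593), with 1065, 833 and 835 at 8 dpg, all above its 0 h arrays, and kept the call under all 17 alternatives. AT1G12830 (1.36), AT1G02870 (1.19), AT2G07170 (1.15) and AT4G33800 (1.38), with no role known here, were higher as well. In that order, their calls were lost under 1, 2, 7 and 8 of 17 alternatives. AT1G23220, a dynein light chain gene, was higher by 1.06 ± 0.275 (limma, adjusted p = 0.0122; lost under 6 of 17). The mitochondrial members had a median of 0.715 and 0 calls. The stumps differ in age and, by one of the labels, in time since cutting, and these cannot be told apart. Their arrays also differ in evenness, with r within the group of 0.969 to 0.976 at 8 dpg and 0.793 to 0.929 at 0 h.

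At 8 dpg the tip was set against the stump, with 3 arrays each. By limma 0 members were called in either direction, as were 0 of all probe sets (0.0% higher and 0.0% lower); 1 member had an unadjusted p under 0.05. The members' median was -0.037, and their differences ran from -0.674 to 0.443. For AT2G45730 the tip gave 2606, 2832 and 3200.1, inside and around the stump's values, a difference of -0.09 ± 0.317. For AT3G05060 it was 0.12 ± 0.286, with 4637, 4132 and 3804 in the tip and 3693, 4133 and 3725 in the stump. A p that misses the threshold does not show that the levels were equal.

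Between the tips 0 members were called from 4 to 8 dpg by limma, where 0.281% of all probe sets were called higher and 0.163% lower; 12 members had an unadjusted p under 0.05, 11 of them higher at 8 dpg. The median was 0.138, against -0.096 over all probe sets, and 0.312 with median centring. The biogenesis members had 20 of 25 positive and a median of 0.354. AT5G38720 gave 602, 1085, 829.7 and 903 at 4 dpg and 1299.5, 1512 and 1785 at 8 dpg, without overlap, a difference of 0.84 ± 0.278 (limma, adjusted p = 0.263) that did not pass. The difference between the change in the stumps and that in the tips was not tested, because it contains the difference of the early tip from the fresh stump, which chose the members.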

How the data were processed

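The authors deposited, for every array, a linear signal intensity of each probe set, made with MAS5 per the submitters' processing notes, which were seen without a version. Per the labels' protocols, labelled cRNA was made in 2 cycles starting with 50 ng of total RNA. The trimmed means of the arrays (2% cut from each end) lay between 246.5 and 248.6, so signals were not scaled again, while array medians ran from 66.1 to 141.8, with 4 above 120. Correlations of arrays within a group ran from 0.793 to 0.976, lowest in the stump at 0 h. They were 0.793 to 0.945 within the groups at 4 dpg, and 0.96 to 0.976 within the section and the groups at 8 dpg. The number of arrays limits the precision.

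Values were taken as log2(signal + 32), which shrinks differences of dim probe sets. A single limma 3.58.1 model (R 4.3.3; lmFit, contrasts.fit, eBayes, trend=TRUE) took all 30 arrays and estimated each group's mean, and p-values were adjusted by Benjamini and Hochberg's method across 22746 probe sets; the code was tested on simulated data. There were 8 comparisons. Summaries used pandas 2.3.3 and plots matplotlib 3.10.9. Names came from a probe table and RefSeq (assembly TAIR10.1, names only), which matched 13436 of 13513 probe sets with 1 gene.

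The members, lists and tests were chosen with earlier results of these data known. Named genes are those with the highest signal at 0 h, the widest gap, the largest called differences, or next to a limit of the rule. Keyword lists over the RefSeq table matched few genes, since it holds no descriptions, so the groups by role and the ribosome lists were drawn up by locus after the members were known, and genes named from them alone were chosen after their values were seen. Numbers were not taken as pairs, since in each comparison at least 1 pair of same-numbered arrays had r under 0.1; over all pairs r ran from -0.13 to 0.628. The highest values, 0.628 for replicate 1 and 0.194 for replicate 4, were between the stumps at 0 and 22 h, and both arrays of replicate 1 there had high medians (141.8 and 122.6). Promoter motifs and sequences were not analysed here. Alternatives were pseudocounts of 1 and 64, array weights, trend=FALSE, median centring, quantile normalization, dropping the dimmest 40% of probe sets, a replicate block, only the compared groups, leaving out the 4 arrays with high medians, and each array in turn.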

Additional observations from a re-analysis of the deposited data

Results flagged for a closer look

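In groups of 4 or 5 arrays the highest or lowest array of the called members was compared with the others by its gap over the whole range (Dixon's criterion). Of 130 groups 7 had an array standing apart, and chance gives about 1 in 20. In the tip at 4 dpg these were the lowest arrays of AT4G22380 (184.9) and of a called probe set not listed with a gene (619.8). In the stump at 5 h they were the highest array of AT1G02870 (1817) and the lowest of AT2G07170 (225.2). In the stump at 13 h the median signal of the members was lowest on replicate 1, at 433.9, while the other 3 arrays reached up to 659.4. The same array had the highest summed signal of the 3 elongating and hair cell genes in its group, 1937.8, against 253.2 to 565.6 on the others. In the stump at 22 h that sum was likewise highest on the array with the lowest member median (1869.0 and 414.0), and at 0 h it was 1955.0 on the lowest (478.9) but also 1635.5 on the highest (800.8). Its part in the members' levels was not tested. In the stump at 22 h they were the highest array of TBL36 (2188), which is the array with the high median, and the lowest of AT1G12830 (330.3).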

How the results depend on the processing

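The number of members called higher or lower was stable at 0 for both comparisons of the tip at 8 dpg under every alternative run. Against 0 h, the 6 calls at 5 h were 13 with median centring, 15 without the 4 arrays whose medians were high, 3 with only the compared groups, and 4 to 12 with 1 array left out (12 and 10 without stump 0 h replicates 1 and 3). The 2 calls at 13 h were 1 with array weights, 5 without the 4 arrays, and 1 to 4 with 1 array left out (1 without stump 0 h replicate 1 or 2 or stump 13 h replicate 2, and 4 without stump 0 h replicate 3 or 4). The 0 calls at 22 h were 1 with median centring, 1 without the dimmest probe sets, 3 without the 4 arrays, and 0 to 3 with 1 array left out (1 without any single stump 0 h array, 2 and 3 without stump 22 h replicates 1 and 2). From 5 to 13 h the 1 call was 2 with array weights, 3 without the 4 arrays, 4 with only the compared groups, and 0 to 1 with 1 array left out (0 without stump 5 h replicate 4). From 5 to 22 h the 4 calls were 2 each with quantile normalization, trend=FALSE and only the compared groups, and 2 to 6 with 1 array left out (2 without stump 5 h replicate 2 or 3). From the stump at 0 h to 8 dpg the 19 calls were 11 with quantile normalization, 49 with median centring, 6 with only the compared groups, and 8 to 32 with 1 array left out (32 and 12 without stump 0 h replicates 1 and 2, 8 and 12 without those of the stump at 8 dpg). With the replicate block the counts were 3 at 13 h, 6 from 5 to 22 h and 22 at 8 dpg, and those of the other comparisons did not change. The rule found 108 members with a pseudocount of 64 (106 of them shared), 56 with median centring (all 56 shared) and 117 to 208 with 1 array left out; without the 4 arrays it found 159, of which 100 were shared. Of 32 calls of single members over 561 alternatives, 425 kept the call, 136 lost it and 0 changed sign, and 8 calls held throughout. The causes were not tested.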
